A study of Mus musculus with 4 samples.

Results

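The clustered replication-dependent histone genes were taken as the genes whose symbols begin with Hist1h, Hist2h, Hist3h or Hist4h, without those marked as pseudogenes. The rule found 67 of the 32285 genes in the count matrices. The Hist1 cluster on chromosome 13 held 54 of them, the Hist2 cluster on chromosome 3 held 10, the Hist3 cluster on chromosome 11 held 2, and *Hist4h4* on chromosome 6 was the remaining member. By protein, 6 encode the linker histone H1, 18 encode H2A, 18 encode H2B, 12 encode H3 and 13 encode H4.

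The core histones H2A, H2B, H3 and H4 form the particle around which DNA is wound, and H1 binds the DNA that enters and leaves it. A dividing cell makes histones while it copies its DNA, so these clustered genes are transcribed together in S phase from nuclear bodies that contain the transcriptional regulator *Npat*. Most of their mRNAs carry no poly(A) tail. They are cut behind a conserved stem-loop, which is bound by the stem-loop binding protein *Slbp*, and they are degraded when S phase ends. Some of these genes are also known to make polyadenylated transcripts, mainly in cells that have left the cell cycle. The 10x Genomics Chromium 3′ chemistry copies RNA from a poly(A) tail or a run of A bases. The values below therefore count the histone transcripts that this priming captured, and how much of the total histone mRNA they represent was not tested.

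The data were single-cell counts of UMIs (unique molecular identifiers, barcodes by which copies of 1 captured transcript are counted once) from tdTomato-positive cells sorted from the forebrain of C57BL/6 mice at postnatal day 5 (P5). All mice carried NestinCreERT2, a tamoxifen-dependent Cre recombinase driven by the Nestin promoter in neural progenitor cells, and the tdTomato reporter, and received tamoxifen at a midfetal stage. Controls were NestinCreERT2/tdTomato/Chd8+/+ and mutants were NestinCreERT2/tdTomato/Chd8+/F, in which Cre removes the loxP-flanked part of 1 allele of *Chd8*, a chromatin remodeler gene. There were 2 libraries per genotype, each from cells pooled from 3 mice. Nothing states the spread between those mice, so p-values measure only the spread between libraries. The captured 3′ end of *Chd8* lies outside the deleted part, so its level does not check the genotype. *Chd8* was counted at 61.7, 68.7, 89.8 and 94.9 CPM (UMIs per 1e6 UMIs of the same cells) in control 1, mutant 1, control 2 and mutant 2, the order of libraries used for all sets of 4 values below.

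After filtering, 17623 of 27742 barcodes were kept, with 2973 to 5710 cells and a median of 11497 to 11837.5 UMIs per cell in a library. The libraries of replicate 2 stood apart from those of replicate 1. They lost 37.8% to 44.0% of barcodes to a mitochondrial share over 10%, against 9.38% to 12.3% in replicate 1, and their file headers name version 5.0.1 of the counting software against 7.0.0. *Xist*, which is transcribed from the inactive X chromosome of females, was counted at 0.149 and 0.153 CPM in replicate 1 and at 1633 and 1749 CPM in replicate 2. Cells were clustered and put into 15 classes, each named for its markers, and 4 of these were dividing classes in which over 50% of cells held *Mki67* UMIs. Although the labels call the cells neuronal, the classes of the neuronal lineages, dividing ones included, held 28.8% of kept cells. Markers of astrocytes, oligodendrocyte precursors, ependymal cells, microglia and pericytes defined other classes. Pairs of libraries shared between 8 and 21 barcodes.

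The stem-loop that ends replication-dependent histone mRNAs could be read from the annotation (GENCODE vM21 transcripts, GRCm38). The search, on the sense strand, was for 16 bases that open with GG and close with CC, hold T, T and A at positions 6, 9 and 11, and pair in their first and last 6 bases, G-T pairs included. It was found in 46 of the 67 histone genes (68.7%) and in 291 of 21834 other protein-coding genes (1.33%). Most of the 46 shared 1 sequence, which 26 members carried, and 7 and 6 members carried the next most frequent ones. The sequences below are shown because they cover the main loop variants and the members on which the results turn. The capitals mark the stem-loop, and the flanking bases are in lower case.
Hist1h1e: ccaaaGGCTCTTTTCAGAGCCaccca
Hist3h2ba: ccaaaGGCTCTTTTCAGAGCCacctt
Hist3h2a: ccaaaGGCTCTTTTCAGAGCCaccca
Hist1h4d: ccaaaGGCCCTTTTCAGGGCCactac
Hist1h4i: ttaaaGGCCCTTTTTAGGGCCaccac
Hist1h3c: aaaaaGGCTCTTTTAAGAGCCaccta
Hist2h2ac: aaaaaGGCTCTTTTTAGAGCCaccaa
The linker histone gene *Hist1h1e* lies on the minus strand at chr13:23620629-23622558 and the H4 gene *Hist1h4d* on the plus strand at chr13:23581598-23582735. *Hist3h2ba* (chr11:58948920-58949533) and *Hist3h2a* (chr11:58954685-58956830), both on the plus strand, encode H2B and H2A. *Hist1h4i* (chr13:22040636-22041362), *Hist1h3c* (chr13:23744973-23745602) and *Hist2h2ac* (chr3:96220361-96220880), all on the minus strand, encode H4, H3 and H2A. *Hist3h2ba* and *Hist3h2a* carried the same 16 bases as *Hist1h1e*. Annotated transcripts ran on after the loop by up to 1153 bases in *Hist1h1e*, 770 in *Hist1h4d*, 330 in *Hist1h4i*, 169 in *Hist3h2ba* and 1643 in *Hist3h2a*. In these members the loop did not mark the annotated end. The distance was 74 bases in *Hist1h3c* and 57 in *Hist2h2ac*. Over all members with the loop it ranged from 3 bases (*Hist1h2ap* and *Hist1h4m*) to 4884 (*Hist1h1d*). The H1 gene *Hist1h1b* (chr13:21779883-21780625, minus strand) and the H2B gene *Hist1h2bc* (chr13:23684199-23692908, plus strand) have annotated ends without the loop, and *Hist1h2bc* is 1 of 5 members with more than 1 exon.

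The members fell into 3 kinds by their annotated ends. A poly(A) signal (AATAAA or ATTAAA in the last 60 bases of a transcript) was found in 17 members, which may also have the loop. Of the others, 32 had the loop only and 18 had neither. The loop-only members gave 243393 UMIs (55.5% of all member UMIs), those with a poly(A) signal 96167 (21.9%) and those with neither 98964 (22.6%). Transcripts without a stem-loop or signal in the annotation may be annotated short of their true end, so the third kind holds members whose end is not known here.

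The promoters of the families differed in their motifs. RefSeq promoters (GRCm38.p6, from 250 bases before to 50 after the start) matched 61 of the 67 members. The octamer ATTTGCAT, searched on both strands, is the element through which the factor Oct-1 is known to act on H2B genes. It occurred in 7 of 17 H2A promoters (41.2%) and in 6 of 16 H2B promoters (37.5%). The H1, H3 and H4 promoters had 0, against 1.75% of 27025 promoters of all genes. Some octamers are counted in both families, since neighbouring H2A and H2B genes share them. These are the octamers of *Hist1h2ae* and *Hist1h2bg*, *Hist1h2ah* and *Hist1h2bk*, and *Hist1h2aa* and *Hist1h2ba*. The windows of each pair are reverse complements, so their orientations are necessarily opposite. Windows of 4 members are shown because H2A and H2B genes carry the element in opposite orientations. The capitals mark the octamer or its reverse complement, which start at positions -129, -200, -90 and -25 from the start site in the order given.
Hist1h2ab promoter, H2A: caggcctttATGCAAATgaggagctc
Hist2h2ac promoter, H2A: gaacgccttATGCAAATtaggtctca
Hist1h2bb promoter, H2B: gagtctcttATTTGCATaaagccttt
Hist1h2bm promoter, H2B: ctcgtctctATTTGCATaacagcgtg
These windows come from chr13:23750838-23751137 (plus strand), chr3:96220831-96221130 (minus), chr13:23746484-23746783 (plus) and chr13:21721794-21722093 (plus). CCAAT, on either strand, was found in all 49 matched H1, H2A, H2B and H3 promoters but in 3 of 12 H4 promoters (25.0%), against 37.9% of all promoters. TATAAA on the gene's strand was found in 30 of 61 member promoters (49.2%) against 8.88% of all. A match is a description of the letters in this window, and its use by a factor was not tested.

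Histone transcripts made up a small part of all captured RNA and a few genes gave most of them. The 67 members had 438524 UMIs of 224246233 in kept cells, or 1956 CPM. *Hist1h1e* alone gave 85348 UMIs (19.5% of member UMIs), *Hist1h4d* 61185 (13.95%) and *Hist1h1b* 47159 (10.8%), so that 3 genes held 44.2% and the 14 most abundant held 81.6%. These ranks pool libraries of different order. *Hist1h4d* was first in mutant 1, with 31104 UMIs against 24605 for *Hist1h1e*, and *Hist1h1b* was second in control 2, with 18961 against 6273 for *Hist1h4d*. H1 genes as a family gave 38.2% of member UMIs, H4 18.7%, H2A 18.5%, H2B 16.1% and H3 8.59%. In a 3′ assay 1 UMI stands for 1 captured transcript whatever its length, so these ranks compare captured transcripts.

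At the lower end, 60 members had at least 100 UMIs, 63 had at least 10 and 37 had at least 1000. *Hist1h2bq* and the testis H2B gene *Hist1h2ba* had 0 UMIs in 17623 cells, *Hist2h2aa2* had 2 and *Hist1h2aa* had 1. *Hist1h2ao* had 47 UMIs, the testis linker histone gene *Hist1h1t* had 34 and *Hist1h4m* had 11. Members with near-identical copies cannot be told apart with certainty, since reads that map equally well to several places are not counted by this kind of software. Members that overlap another gene on the same strand numbered 4, among them *Hist1h1e* with *Hist1h2be* and *Hist3h2a* with *Trim17*.

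**Figure D1:**
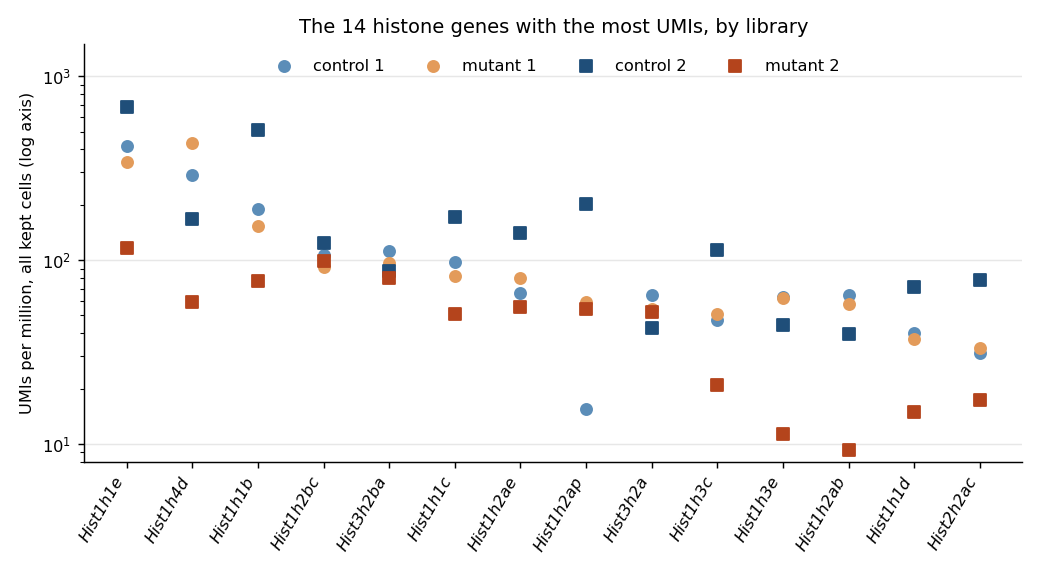
CPM of all kept cells (log axis) for the 14 histone genes with the most UMIs, 1 point per library. Mutant 2 was the lowest of the 4 libraries for 11 of the 14 genes, and not for *Hist1h2bc*, *Hist3h2a* and *Hist1h2ap*. The libraries lay close together for *Hist1h2bc*, *Hist3h2ba* and *Hist3h2a*.

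Summed histone transcripts differed widely between libraries of the same genotype. Over all kept cells the members summed to 1958, 2067, 2944 and 863.7 CPM. Control 2 was the highest and mutant 2 the lowest, with the replicate 1 libraries between them and close together. The control mean was 2451 CPM and the mutant mean 1465 CPM, a difference of -985.9 CPM that did not pass an exact two-sided permutation test (p = 0.667, where 4 libraries allow no p below 0.33). Without mutant 2 the difference was -384.4 CPM and without mutant 1 it was -1587 CPM. The dividing classes held 16.5%, 16.96%, 18.3% and 17.1% of cells, and a list of S phase genes that contains no member summed to 1837, 1837, 1982 and 1835 CPM. In neither of these measures did mutant 2 stand apart from the libraries of replicate 1. By other measures it did, together with control 2. *Mki67* UMIs were found in 18.1%, 18.9%, 29.8% and 26.5% of all kept cells. In dividing cells the S phase list's median share of S plus G2M list UMIs was 25.0%, 24.1%, 18.8% and 18.6%. The part of cycling cells in the histone sums was not tested.

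Single members showed how far the libraries lay apart. *Hist1h1e* was counted at 415.2, 341.7, 678.8 and 116.9 CPM and *Hist1h1b*, also a linker histone gene, at 189.9, 153.1, 507.6 and 77.4 CPM. In both, control 2 stood above and mutant 2 below the pair of replicate 1. The H4 gene *Hist1h4d* had another order, with 290.3, 432.0, 167.9 and 59.3 CPM, highest in mutant 1. The H2A gene *Hist1h2ap* was counted at 15.5, 59.5, 202.6 and 54.4 CPM and was lowest in control 1. *Hist1h2bc* had 107.2, 91.8, 124.5 and 99.2 CPM, and *Hist3h2ba* had 112.0, 96.4, 86.9 and 80.3 CPM. For these H2B genes no library stood apart.

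Dividing cells carried most histone transcripts. They were 3011 cells, 17.1% of cells with 22.9% of all UMIs, and held 61.8% of member UMIs. In the astrocyte lineage the members summed to 973.1, 951.5, 1035 and 388.2 CPM in resting cells and to 5434, 5509, 8215 and 1959 CPM in dividing ones, which did not overlap and rose 5.05-fold to 7.94-fold within a library. In the inhibitory neuron lineage resting cells had 1172, 1266, 1696 and 835.4 CPM and dividing cells 6653, 7171, 15341 and 3943 CPM, 4.72-fold to 9.05-fold within a library. The fold was 3.67 to 7.41 in the oligodendrocyte lineage and 2.21 to 4.99 between dividing and other excitatory neuron cells. Classes were clustered on variable genes that held no member, and dividing classes were set by *Mki67*. The same cells gave the classes and these values.

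The families differed in how far they rose. In the astrocyte lineage the H3 genes rose 11.5-fold to 21.4-fold within a library and the H2A genes 10.0-fold to 16.02-fold. H4 rose 5.65-fold to 7.36-fold there, H1 4.07-fold to 7.26-fold and H2B 1.47-fold to 3.46-fold. The order of H1 and H2A was not the same in every lineage. In the inhibitory neuron lineage H1 rose 5.62-fold to 11.7-fold and H2A 6.27-fold to 13.1-fold. In the excitatory neuron lineage H1 rose 4.72-fold to 10.04-fold and H2A 1.84-fold to 4.60-fold. Of the H3 UMIs 80.0% lay in dividing cells, of the H2A UMIs 72.2%, of the H4 UMIs 65.7%, of the H1 UMIs 59.3% and of the H2B UMIs 41.4%. The low share of H2B came with *Hist1h2bc* (18.7% of its UMIs in dividing cells) and *Hist3h2ba* (24.5%), the H2B genes with the most UMIs. By annotated end, 47.1% of the UMIs of members with a poly(A) signal lay in dividing cells, against 64.8% for members with the loop only and 68.4% for those with neither. A few genes weigh heavily in these shares. *Hist3h2ba* and *Hist3h2a* gave 21749 and 12382 of the 96167 UMIs of members with a signal. *Hist1h1e* and *Hist1h4d* gave 85348 and 61185 of the 243393 UMIs of the loop-only members. Whether the kind of end bears on these shares was not tested.

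Tested gene by gene with edgeR's quasi-likelihood test on UMI sums per library and class, with the library as a block and Benjamini-Hochberg adjusted p under 0.05, nearly every tested member changed with division. In the astrocyte lineage 49 of 53 tested members rose and 1 fell, where 30% of all 14061 tested genes rose and 28.3% fell. The median change over the tested members was 3.59 on the log2 scale against -0.01 over all genes. In the inhibitory neuron lineage 45 of 49 rose and 2 fell (25.9% and 36.6% of all genes), with a median of 3.69 against -0.13. In the oligodendrocyte lineage 33 of 36 rose and 2 fell (20% and 17.6% of all genes), with a median of 3.49 against -0.02. Members that were tested had passed a filter on low counts, which dividing cells help to pass, so these counts leave out 14, 18 and 31 of the 67.

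The steepest rises were in H3 and H2A genes that were nearly silent in resting cells. *Hist1h3c*, an H3 gene with the loop only, had 1.61, 2.25, 5.71 and 1.24 CPM in resting astrocytes and 194.6, 204.9, 401.3 and 87.6 CPM in dividing ones. That was a log2 change of 6.50 (SE 0.13, edgeR adjusted p = 8.83e-09), and in the inhibitory neuron lineage it was 7.83 (SE 0.14, edgeR adjusted p = 5.93e-17). The H2A gene *Hist1h2af* changed by 7.05 (SE 0.16) and 7.87 (SE 0.17) in these lineages and by 5.70 (SE 0.22) in the oligodendrocyte lineage. *Hist1h1b*, the third most abundant member, rose from 29.4, 20.5, 43.1 and 10.4 CPM to 904.1, 647.2, 1844 and 274.5 CPM in the astrocyte lineage, a log2 change of 5.10 (SE 0.14). No library of dividing cells overlapped the resting ones for these 3 genes. Other H3 and H2A genes followed, with log2 changes in the astrocyte lineage of 6.22 for *Hist1h3b*, 5.62 for *Hist1h2ab* and 5.49 for *Hist1h3g*.

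Abundant members differed in how far they rose. *Hist1h1e* was counted at 400.0, 321.3, 414.6 and 71.5 CPM in resting astrocytes and changed by 1.67 (SE 0.17, edgeR adjusted p = 7.21e-05) on the log2 scale. The linker histone genes *Hist1h1c* and *Hist1h1d* changed by 1.61 and 2.98, and *Hist1h4d* by 2.68 (SE 0.11). These lay below the members' median. *Hist1h3e* and *Hist2h2ac* changed by 3.33 and 2.94, and the H2A genes *Hist1h2ae* and *Hist1h2ap*, also among the 14 most abundant, by 5.16 and 5.04. All 8 of these passed the threshold.

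**Figure D2:**
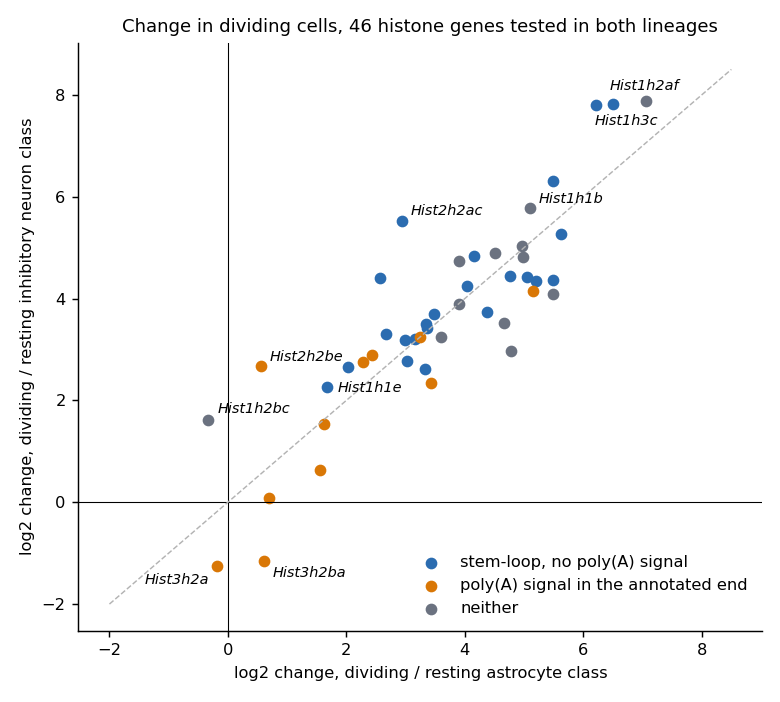
Log2 change between dividing and resting cells in the astrocyte lineage (x axis) and the inhibitory neuron lineage (y axis) for the 46 histone genes tested in both, 1 point per gene, coloured by annotated end, with a dashed line of equal change. *Hist1h3c* and *Hist1h2af* lie at the upper right, while *Hist3h2ba* and *Hist3h2a* lie below 0 on the y axis and *Hist1h2bc* left of 0 on the x axis.

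*Hist3h2ba*, *Hist3h2a* and *Hist1h2bc* did not follow the other members. In the inhibitory neuron lineage *Hist3h2ba* had 366.4, 339.9, 457.8 and 393.0 CPM in resting cells and 198.8, 161.3, 165.2 and 165.3 CPM in dividing ones, which did not overlap. It fell there by 1.15 on the log2 scale (SE 0.07, edgeR adjusted p = 2.47e-10) and *Hist3h2a* fell by 1.26 (SE 0.10, edgeR adjusted p = 8.1e-09). In the oligodendrocyte lineage they fell by 0.83 (SE 0.08) and 1.003 (SE 0.11). In the astrocyte lineage *Hist3h2ba* rose by 0.61 (SE 0.13, edgeR adjusted p = 0.00388), but by 0.12 (edgeR adjusted p = 0.381) once called doublets were removed, and *Hist3h2a* changed by -0.19 (edgeR adjusted p = 0.115). *Hist1h2bc* went the other way. It had 116.1, 98.6, 135.0 and 101.9 CPM in resting astrocytes against 91.2, 85.1, 99.3 and 66.3 CPM in dividing ones, and fell by 0.33 on the log2 scale (SE 0.07, edgeR adjusted p = 0.0052). In inhibitory neurons it had 36.9, 31.1, 30.6 and 18.7 CPM in resting cells and 88.4, 95.1, 91.9 and 156.0 CPM in dividing ones, a rise of 1.62 (SE 0.17). The resting cells of the inhibitory neuron lineage are neurons, so changes with division and with neuronal differentiation cannot be told apart there.

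Whether the response to division differed between lineages was tested in 1 fit over the 24 sums of the 3 lineages, an analysis chosen after the data had been seen. The resting class is neurons in the inhibitory neuron lineage and glia in the others. Differences in the response to division and differences between the resting classes cannot be told apart in this fit. Of 59 tested members, 10 changed more and 9 changed less in the inhibitory neuron lineage than in the astrocyte lineage (13.4% and 22.6% of 14550 genes). In the oligodendrocyte lineage 1 member changed more and 10 less than in astrocytes (8.02% and 15.3%). Set against the oligodendrocyte lineage, 14 changed more and 1 less in inhibitory neurons (13.7% and 14.3%). Counting both directions, members were called no more often than all genes in each comparison. The difference between the inhibitory neuron and astrocyte lineages was 2.79 for *Hist2h2ac* and 2.07 for *Hist1h2bc* (SE 0.22, edgeR adjusted p = 1.21e-07) on the log2 scale, and -1.70 for *Hist3h2ba* (SE 0.15, edgeR adjusted p = 7.67e-09). For *Hist2h2ac* the lineages differed mainly in their resting cells. It had 19.1, 21.2, 36.4 and 7.04 CPM in resting astrocytes but 1.40, 1.75, 6.64 and 1.25 CPM in resting inhibitory neurons, while dividing cells had 142.1, 129.3, 261.2 and 66.9 CPM and 77.8, 72.9, 304.6 and 66.4 CPM.

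Within the dividing cells, histone transcripts varied with the phase of the cell cycle. The cells of each library, with all 4 dividing classes pooled, were ranked and cut into 5 equal groups. The rank was the S phase list's share of their S plus G2M list UMIs, and neither list holds a member. Since the classes were pooled, the groups may differ in their mix of lineages, which was not tested. From the G2M end to the S end the members summed to 1706, 4749, 7686, 8134 and 3634 CPM in control 1 and to 1823, 5654, 8382, 7742 and 4523 CPM in mutant 1. In control 2 the values were 1590, 4178, 11816, 14697 and 8776 CPM, and in mutant 2 they were 610.2, 1137, 2633, 3625 and 2078 CPM. The peak lay in the fourth group in 3 libraries and in the third in mutant 1, and the group at the S end was lower than the peak in all 4. The S list gene *Pcna*, a clamp of the replication fork, peaked at the S end in all 4 libraries, which the ranking itself favours. The variant gene *H2afz*, whose H2A.Z protein is placed outside replication, peaked in the second group in all 4.

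**Figure D3:**
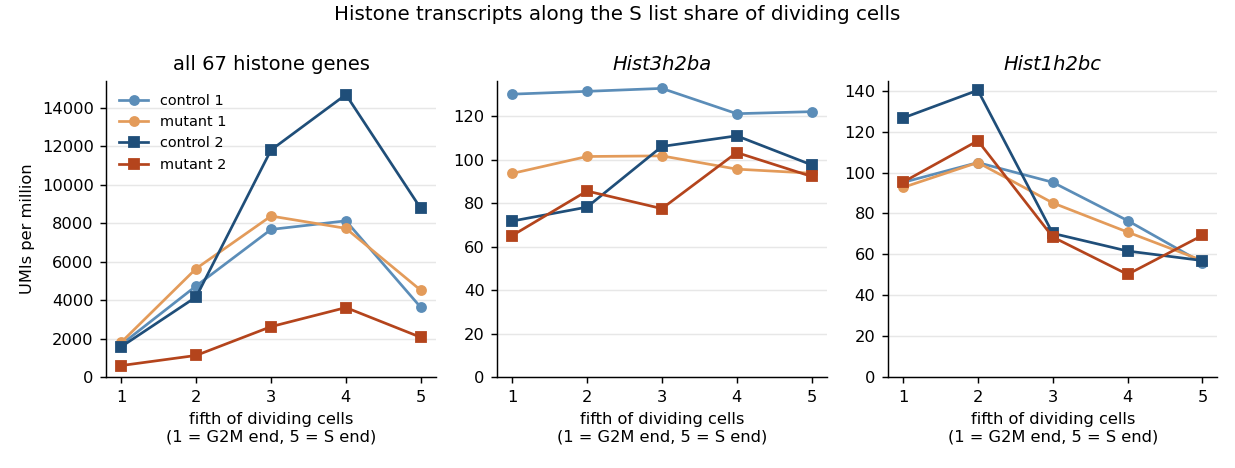
CPM (y axis, from 0) in 5 equal groups of the dividing cells ranked from the G2M end (1) to the S end (5), 1 line per library, for all 67 histone genes, *Hist3h2ba* and *Hist1h2bc*. The summed histone genes peak in the third or the fourth group in every library, at 3625 CPM in mutant 2 and 14697 CPM in control 2, whereas *Hist1h2bc* peaks in the second group.

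Comparing the third of cells nearest the S end with the third nearest the G2M end, 44 of 53 tested members were higher and 2 lower by edgeR's quasi-likelihood test (18.2% and 19.4% of 12630 genes), with a median log2 change of 1.23 against -0.02 over all genes. The H3 gene *Hist1h3a* changed most, by 2.68 (SE 0.18, edgeR adjusted p = 8.54e-06), followed by *Hist1h1b* (2.59, SE 0.26), *Hist1h1a* (2.58, SE 0.23), *Hist1h2ap* (2.27) and *Hist1h2ae* (2.24). *Hist1h1e* changed by 1.505 (SE 0.20), *Hist1h3c* by 1.13 and *Hist1h4d* by 0.93. *Hist1h1c* passed the threshold with a smaller change of 0.56 (SE 0.18, edgeR adjusted p = 0.0352). *Hist1h2bc* fell by 0.81 (SE 0.10, edgeR adjusted p = 0.000294), and the H2B gene *Hist2h2be* by 0.66 (SE 0.21, edgeR adjusted p = 0.0339), a call lost without mutant 1 (-0.59), control 2 (-0.56) or mutant 2 (-0.63). *Hist3h2ba* had a change of 0.09 (SE 0.12, edgeR adjusted p = 0.584) and *Hist3h2a* of -0.23 (edgeR adjusted p = 0.336). Without the library block 3 members were higher and 1 lower, given here without the share of all genes called.

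Outside division the members differed between cell classes. Between neurons (inhibitory and excitatory) and resting glia (astrocytes and oligodendrocyte precursors), 17 of 42 tested members were higher in neurons and 7 lower (33.7% and 37.8% of 15346 genes), a count near or below the share of all genes. The median was 0.37 against -0.04. *Hist3h2ba* was higher by 2.85 on the log2 scale (SE 0.07, edgeR adjusted p = 4.5e-08) and *Hist3h2a* by 2.09 (SE 0.10, edgeR adjusted p = 5.44e-07). Excitatory neurons had 260.6, 294.2, 446.0 and 393.1 CPM of *Hist3h2ba*, close to inhibitory neurons, and oligodendrocyte precursors had 122.1, 99.7, 150.3 and 129.9 CPM. Astrocytes had 26.5, 21.5, 34.6 and 30.9 CPM and pericytes 14.3, 8.96, 11.6 and 10.1 CPM. Neurons, precursors and astrocytes did not overlap with each other, and inhibitory and excitatory neurons did.

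On the glial side stood *Hist2h3c1* and *Hist2h2ac*, lower in neurons with log2 changes of -2.77 (SE 0.44, edgeR adjusted p = 0.000582) and -2.61 (SE 0.21, edgeR adjusted p = 1.11e-05), *Hist1h2bc* (-1.53, SE 0.16), *Hist2h2be* (-1.21) and *Hist1h1b* (-0.74, SE 0.16, but 0.10 at a cluster resolution of 2). *Hist2h3c1* had few counts, with 365 UMIs in all kept cells and 0.24, 0.36, 0.92 and 0.75 CPM in excitatory neurons. *Hist1h1e* was also lower in neurons, with a change of -0.59 (SE 0.09, edgeR adjusted p = 0.000439), and *Hist1h4d* had a value of -0.01 (edgeR adjusted p = 0.937). Other members higher in neurons were the H2A genes *Hist1h2ai* (2.01, SE 0.26), *Hist1h2an* (1.53), *Hist1h2ae* (1.15) and *Hist1h2ab* (0.90) and the H2B gene *Hist1h2bm* (1.33). Of these, *Hist1h2ai* had 3.58, 5.11, 3.32 and 0.0 CPM in inhibitory neurons. *Mki67* UMIs were found in 5.23%, 5.61%, 17.8% and 13.3% of resting astrocytes and in 2.05%, 0.898%, 5.17% and 4.62% of inhibitory neurons, at a median of 13449 and 6215 UMIs per cell. How much of this is free RNA or cycling cells, and its part in the differences, was not tested.

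Ependymal cells, the ciliated lining of the ventricles, had the highest *Hist1h2bc* of the classes drawn, at 340.8, 317.0, 345.1 and 348.8 CPM. Their *Hist1h1c* was 186.9, 193.2, 169.0 and 165.7 CPM. For both genes the 4 libraries lay close together. In astrocytes *Hist1h1c* had 60.6, 46.6, 87.9 and 32.8 CPM. Of the 12 classes pericytes varied most between the replicate 1 libraries, with 807.9 CPM of members in control 1 and 2606 CPM in mutant 1, and *Hist1h1b* at 40.6 and 290.2 CPM.

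**Figure D4:**
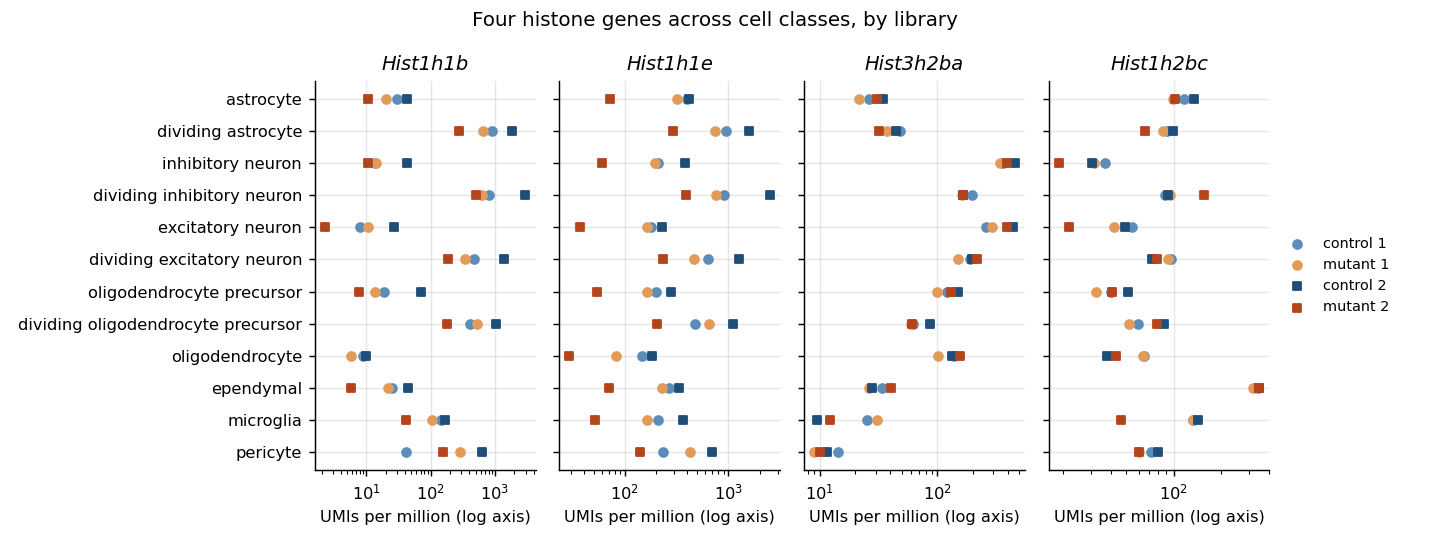
CPM (log axis) of *Hist1h1b*, *Hist1h1e*, *Hist3h2ba* and *Hist1h2bc* in 12 cell classes, 1 point per library, where a library at 0 (*Hist1h1b* in oligodendrocytes of mutant 2) is not drawn. Mutant 2 lies at the left for *Hist1h1e* in every class, while *Hist3h2ba* ranges from 8.96 CPM in pericytes to 457.8 CPM in inhibitory neurons. The libraries of *Hist3h2ba* lie at 339.9 to 457.8 CPM in inhibitory neurons and at 9.52 to 30.6 CPM in microglia.

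The comparison of the study, mutant against control, called no histone gene with genotype as the only term. In 12 classes with at least 20 cells in every library, in all dividing cells and in all cells, edgeR's quasi-likelihood test called 0 members, and it called 0 genes of any kind (background 0.0%). Among all dividing cells 60 members were tested, of which 0 had an unadjusted p under 0.05 by edgeR and 4 by DESeq2, which also called 0. Among all cells 61 were tested, with 0 and 3 at an unadjusted p under 0.05. In the 12 classes edgeR gave 0 to 3 members at an unadjusted p under 0.05 and DESeq2 0 to 7, with 0 called. These unadjusted counts are given without the share of all genes at that threshold. Without a filter on low counts edgeR called 2 members lower in dividing excitatory neuron cells and 5 in dividing inhibitory neuron cells. The share of all genes called in that fit is not given here, so these counts have no background beside them. The median change over the members in dividing cells was -0.46 against -0.01 over all genes. With 2 libraries on each side this fit called no gene at all, so its 0 does not show that the members were alike. The median was 0.09 without mutant 2 and -1.91 without mutant 1, so 1 library set its sign.

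With the replicate number as a block, 12 of the 60 members were lower in mutant dividing cells and 0 higher, where 0.126% of 15084 genes were lower and 0.119% higher. The H1 genes led. *Hist1h1b* fell by 1.59 on the log2 scale (SE 0.27, edgeR adjusted p = 0.00493), *Hist1h1c* fell by 1.43 (SE 0.26, edgeR adjusted p = 0.00925), *Hist1h1e* fell by 1.41 (SE 0.25, edgeR adjusted p = 0.00925), and *Hist1h1a* and *Hist1h1d* fell by 1.39 and 1.23. The other 7 were *Hist1h2ab*, *Hist1h2bm*, *Hist1h3c*, *Hist1h3e*, *Hist1h3f*, *Hist1h3i* and *Hist2h2ac*, with changes from -0.97 to -1.25. With 2 libraries per genotype and a block, the SE and p-values rest largely on spread borrowed from other genes. They do not measure a member's own spread. The ratios of *Hist1h1b* in the 2 replicates, -0.35 and -2.77, lay much further apart than its SE of 0.27 conveys. In single classes the same fit called fewer members, all of them lower. There were 4 in dividing oligodendrocyte precursors (0.0956% of all genes lower, 0.0174% higher), 3 in astrocytes (0.0837% and 0.0129%) and 3 in dividing excitatory neuron cells (0.0268% and 0.00892%). Microglia had 2 (0.076% and 0.317%), oligodendrocyte precursors 2 (0.0451% and 0.0%), excitatory neurons 1 (0.185% and 0.0353%) and oligodendrocytes 1 (0.162% and 0.00955%). The count was 0 in ependymal cells (0.0% and 0.00711% of all genes), in inhibitory neurons (0.00795% and 0.0%), in pericytes, dividing astrocytes and dividing inhibitory neuron cells (0.0% each) and in all cells. In these sets 0 to 25 of the tested members had an unadjusted p under 0.05. The share of all genes is not given here for all cells or for the unadjusted counts, so these have no background beside them. Summed members were lowest in mutant 2 in 11 of 12 classes and highest in control 2 in 10. Whether the falls called with the block belong to the genotype or to these libraries cannot be told apart. *Hist1h1e* was called in 8 of the 14 sets of cells, *Hist1h1b* in 5 and *Hist1h1c* in 4.

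The replicates showed falls of very different size. In dividing cells *Hist1h1b* had 728.2 CPM in control 1 and 571.8 in mutant 1, and 1760.4 CPM in control 2 and 257.2 in mutant 2. The log2 ratio of mutant to control was -0.35 in replicate 1 and -2.77 in replicate 2. For *Hist1h1e* the ratios were -0.25 and -2.52. Over the 12 members called with the block, 10 were lower in replicate 1, with ratios from -0.35 to 0.07, and 12 in replicate 2, with ratios from -2.77 to -1.91.

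Ratios within each replicate number, a comparison chosen after the data had been seen, could be taken for 55 members and 12937 genes with at least 10 UMIs in every library of dividing cells. In replicate 2 the median over the members was -1.85 on the log2 scale, while all genes had a median of 0.05 and a 5th to 95th percentile range of -0.56 to 0.61. In mutant 2, 41 of the 55 members were at less than 50% of their level in control 2, as were 1.21% of all genes. In replicate 1 the members' median was 0.08 against -0.00, and 0 of the 55 were below 50% (0.17% of all genes). Above double were 6 of the 55 members, against 90 of the 12937 genes. Over all cells 42 of 58 members were below 50% in replicate 2 (2.0% of 16878 genes) and 0 in replicate 1 (1.55%). With 1 library on each side, a ratio describes those libraries and has no test. The control libraries differed too, with a members' median of 0.32 for control 2 over control 1 against 0.06 over all genes, and 14 of the 55 members were above double (7.91% of all genes).

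The ratio of mutant 2 to control 2 was unequal among the members. By annotated end, 22 of 27 members with the loop only and 11 of 13 with neither were below 50%, against 8 of 15 with a poly(A) signal, and the medians were -1.98, -1.81 and -1.39. In replicate 2, 7 members were higher in the mutant, and 6 of these have a poly(A) signal: *Hist1h4i* (0.05), *Hist2h2be* (0.25), *Hist2h3c1* (0.27), *Hist4h4* (0.28), *Hist3h2a* (0.58) and *Hist2h4* (0.58), while the seventh, *Hist1h2ag* (0.11), has the loop only. Of those higher in the mutant, *Hist1h4i* and *Hist3h2a* had 38.5 and 35.0 CPM in control 2. The others ranged there from 1.25 (*Hist2h3c1*) to 7.47 CPM (*Hist2h2be*), so their ratios rest on few UMIs. The median ratio over all genes was 0.05. *Hist3h2ba* and *Hist1h2bc* stood at -0.14 and -0.20. The lowest ratios in replicate 2 were in *Hist1h2ad* (-3.39), *Hist1h2br* (-3.04), *Hist1h4b* (-2.92) and *Hist1h3b* (-2.90). In mutant 2 *Hist1h2ad*, *Hist1h2br* and *Hist1h4b* had 1.61, 3.11 and 1.93 CPM, so their ratios rest on few UMIs too. These ratios also hold the level of control 2. *Hist1h2br* had 3.09 CPM in control 1 and 25.6 CPM in control 2. These genes were named after their values had been seen.

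In replicate 1 the families went different ways. All 5 H1 genes with a ratio were lower in mutant 1, with a median of -0.25, inside the 5th to 95th percentile range over all genes in this replicate of -0.32 to 0.50. Of 10 H4 genes 9 were higher in mutant 1, with a median of 0.501, at the upper end of that range. *Hist1h2ap* had the highest ratio, 1.91, with 57.9 CPM in control 1 and 218.1 CPM in mutant 1, and the H4 genes *Hist1h4c* and *Hist1h4h* had ratios of 1.31 and 1.22. In replicate 2 the H1 and H4 medians were -2.57 and -1.80.

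**Figure D5:**
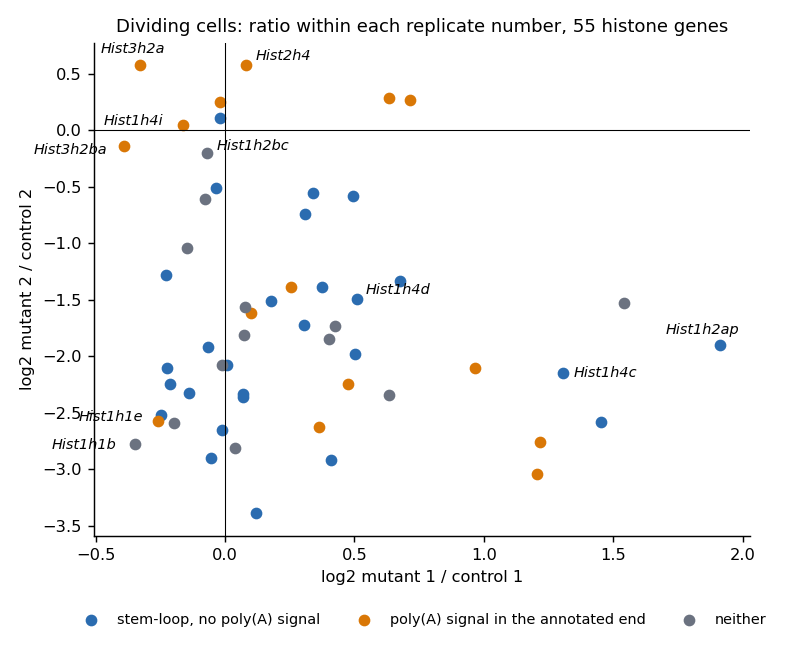
Log2 ratio of mutant to control in dividing cells, replicate 1 on the x axis and replicate 2 on the y axis, for 55 histone genes, 1 point per gene, coloured by annotated end. Most genes lie near 0 on the x axis and below -1 on the y axis. The genes at or above 0 on the y axis mostly have a poly(A) signal, and most of them have few UMIs.

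Most classes shared this order of libraries. Over the 12 classes with at least 20 cells in every library, mutant 2 had the lowest member CPM in 11 and control 2 the highest in 10. The ratio of control 2 to mutant 2 ranged from 1.51-fold to 4.19-fold with a median of 2.74-fold, and mutant 1 was above control 1 in 7 of the 12. Microglia, with 204, 72, 35 and 51 cells, had 1462, 1411, 1441 and 510.3 CPM of members, lowest in mutant 2.

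The genes that make, bind and replace these transcripts gave the last comparison. Of 16 genes of histone gene transcription and mRNA end processing 14 were found and 13 tested. They rose in dividing astrocytes in 11 cases and fell in 1, in the inhibitory neuron lineage they rose in 8 and fell in 2, and in the oligodendrocyte lineage they rose in 8 and fell in 1. Beside these stand the shares of all genes that rose and fell, 30% and 28.3% in the astrocyte, 25.9% and 36.6% in the inhibitory neuron and 20% and 17.6% in the oligodendrocyte lineage. *Slbp* changed by 1.84 (SE 0.10), 1.90 and 0.62, *Npat* by 0.72, 0.45 and 0.38, and *Eri1*, an exonuclease that trims histone mRNA ends, by 2.12, 0.91 and 0.78. Toward the S end *Npat* rose by 0.71 (SE 0.08) and *Eri1* by 1.08, and *Slbp* is on the S list that ranked the cells. In dividing cells *Slbp* was counted at 164.1, 157.2, 104.0 and 121.8 CPM and *Npat* at 55.5, 56.4, 57.3 and 34.8 CPM. *Slbp* was higher in mutant 2 than in control 2, and *Npat* was lower.

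Of 12 histone chaperones 11, 10 and 10 rose in the astrocyte, inhibitory neuron and oligodendrocyte lineages and 0, 2 and 0 fell, to be read against the same shares. *Asf1b*, which hands H3 and H4 to the assembly machinery, changed by 4.45, 5.65 and 3.59, and *Chaf1a*, a subunit of the replication-coupled assembly factor, by 2.59, 2.73 and 1.39. The 11 genes listed here as replication-independent histone variants rose in 10, 11 and 9 cases and fell in 1, 0 and 1. Whether each of them is made independently of replication was not tested. *H2afz* changed by 2.73 (SE 0.14), 2.73 and 2.01 and *H2afx* by 3.84, 4.42 and 3.28. Summed, the variants rose 1.81-fold to 2.86-fold within a library in the astrocyte and inhibitory neuron lineages. Toward the S end 5 variants rose and 6 fell (18.2% and 19.4% of all genes), among them *H2afz* (-0.53, SE 0.03) and *H2afx* (-1.51), and the variant *Cenpa* is itself on the G2M list that ranked the cells. In dividing cells *H2afz* had 3941, 3639, 2918 and 2956 CPM and *H2afx* 620.0, 569.2, 356.1 and 470.8 CPM, and for both mutant 2 was not below control 2. Between genotypes in dividing cells, edgeR with the replicate block called 0 genes of the 3 lists, with 1 of the 14 tested processing genes and 0 of the chaperones and variants at an unadjusted p under 0.05.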

How the data were processed

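The 4 libraries, their groups and replicate numbers came from the labels. The authors counted UMIs with Cell Ranger against mm10, and the deposited matrices hold raw counts per gene and barcode, without normalization. The submitters' notes name Cell Ranger 3.0, while the file headers name 7.0.0 for replicate 1 and 5.0.1 for replicate 2. These versions differ by default in whether intronic reads are counted, and whether the setting was changed is not given in the sources used here. Total counts per library ranged from 46274374 to 79328841.

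Barcodes were kept if they had between 2000 and 40000 UMIs, 1000 or more genes and a mitochondrial share of 10% or less, and were clustered with scanpy 1.11.5 on 2000 variable genes, 30 components and 15 neighbours at a resolution of 1. Classes were named from marker lists. A cluster whose cells held *Mki67* UMIs in over 50% of cases was dividing. Doublets called by Scrublet (0.202% to 2.79% of cells) were kept, and removing them was an alternative. CPM are UMIs per 1e6 UMIs of the same cells.

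Counts were summed per library and class, passed through filterByExpr, scaled with TMM factors and tested over all genes with edgeR 4.0.16 in R 4.3.3 (quasi-likelihood test, Benjamini-Hochberg adjustment). The library was a block between classes of the same libraries, and genotype was the only term between genotypes. DESeq2 1.42.0, no scaling, other filters, a mitochondrial limit of 5%, a resolution of 2, other blocks, 2 phase groups in place of 3 and leaving out each library were alternatives. The fits were tested on simulated data. Replicate numbers share a software version, and deviations from the group means of same-numbered libraries correlated at 0.86 over all cells and 0.87 over dividing cells (0.359 and 0.381 over the members alone), so the replicate block was taken as a pairing.

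The members and the lists were chosen with earlier results of these data known. Genes named are the 14 members with the most UMIs, up to 5 per direction with the largest change past an adjusted p of 0.05 in a comparison, and genes of the lists, and others were chosen after their values were seen. Stem-loops were searched in GENCODE M21 transcripts and motifs in RefSeq promoters.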

Additional observations from a re-analysis of the deposited data

Results flagged for a closer look

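For 20 pairs of a gene and a pair of lineages, among the 14 members with the most UMIs, the change between dividing and resting cells differed between lineages by a test of the difference itself (edgeR's quasi-likelihood interaction, Benjamini-Hochberg adjusted p under 0.05). Of 14550 genes in the same fit, 1947 changed more and 3286 less in the inhibitory neuron than in the astrocyte lineage. In the oligodendrocyte lineage 1167 changed more and 2227 less than in astrocytes. Set against the oligodendrocyte lineage, 1990 changed more and 2074 less in inhibitory neurons. Among the 59 tested members these counts were 10 and 9, 1 and 10, and 14 and 1. Counting both directions, members were called no more often than all genes in each comparison. The flagged pairs therefore do not show that members differed between lineages more than other genes did. By direction, in the last comparison the 14 members were a larger share than the 1990 genes, and the 1 member a smaller share than the 2074. With 2 libraries per genotype, it cannot be told which library of a group stands apart from the other. How these differences changed when each library was left out is not given here. All values are differences of log2 changes.

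Against the astrocyte lineage, the change in the inhibitory neuron lineage was greater for *Hist2h2ac* by 2.79, for *Hist1h2bc* by 2.07, for *Hist1h3c* by 1.45, for *Hist1h4d* by 0.87, for *Hist1h1b* by 0.86 and for *Hist1h1e* by 0.79. It was smaller for *Hist1h2ae* (-0.83), *Hist3h2a* (-0.97) and *Hist3h2ba* (-1.70). The H2B genes *Hist1h2bc* and *Hist3h2ba* thus differed in opposite directions. The resting class is neurons in the inhibitory neuron lineage and glia in the others, which this test cannot separate from division.

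Against the oligodendrocyte lineage, the inhibitory neuron lineage had a greater change for *Hist1h3c* (2.76), *Hist2h2ac* (1.93), *Hist1h1b* (1.38), *Hist1h2bc* (0.96) and *Hist1h4d* (0.81). Against the astrocyte lineage, the oligodendrocyte lineage had a greater change for *Hist1h2bc* (1.11) and a smaller one for *Hist3h2a* (-0.84), *Hist1h2ap* (-0.88), *Hist1h2ae* (-1.06), *Hist1h3c* (-1.31) and *Hist3h2ba* (-1.47).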

How the results depend on the processing

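Under the alternatives 429 counts and summary values stayed within 1.5 times or 1 SD of the reported value and 32 did not. Counts of members in this paragraph are given without the shares of all genes called, so they have no background beside them. Requiring at least 10 counts in every sum lowered the number of members that rose to 25 in the astrocyte, 13 in the inhibitory neuron and 11 in the oligodendrocyte lineage, to 25 toward the S end, and to 8 higher and 4 lower in neurons, since fewer members could be tested. With no filter 54 rose in the oligodendrocyte lineage, and 2 and 5 were lower in mutant dividing excitatory and inhibitory neuron cells. Members that fell in the astrocyte lineage numbered 2 without TMM scaling, with doublets removed or at a resolution of 2, and 0 without the library block. Toward the S end 1 member was lower by DESeq2, with doublets removed, without the library block or with 2 phase groups in place of 3, and 3 were higher without the block. Neurons then had 6 higher and 3 lower. The cause of these changes was not tested. At a resolution of 2 the change of *Hist3h2ba* toward the S end was -0.34, and those of *Hist1h1b* and *Hist1h3c* in neurons were 0.10 and 0.60, opposite to the reported direction. Leaving out each library gave 1 to 2 members lower in the astrocyte lineage and 1 to 2 lower toward the S end. The numbers higher ranged from 48 to 52 in the astrocyte, 35 to 54 in the inhibitory neuron and 33 to 42 in the oligodendrocyte lineage, and from 39 to 50 toward the S end. The difference in summed member CPM ranged from -1587 to -384.4.

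With the replicate block as a pairing, the number of members lower in mutants went from 0 to 12 in all dividing cells, 4 in dividing oligodendrocyte precursors, 3 in astrocytes, 3 in dividing excitatory neuron cells, 2 in microglia, 2 in oligodendrocyte precursors, 1 in excitatory neurons and 1 in oligodendrocytes. It stayed at 0 in the other sets of cells, and no member was called higher.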

Other observations

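The unnamed clusters, 682 cells in all, held members at 1395, 1569, 2326 and 551.3 CPM, with mutant 2 lowest there too.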
